A study of Mus musculus with 16 samples.

Results

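The genes described here are those whose symbol starts with Snrp, Lsm, Prpf, Sf3a or Sf3b, most of which encode core proteins of the spliceosome, leaving out pseudogenes and the unrelated Lsmem genes. The rule used names alone and took 46 of the 23284 gene symbols counted, 12 Snrp, 13 Lsm, 13 Prpf and 8 Sf3a or Sf3b (Sf3) genes. They were measured by RNA sequencing of total RNA in 16 mouse lung tumors, 9 labelled Max -/- (called null) and 7 labelled Max wild-type, all on a mixed 129/SvJ and C57BL/6 background. All mice carry the RP alleles, a name commonly used for conditional Rb1 and Trp53 deletion in a model of small cell lung cancer, although the labels never expand the letters. In both groups deletion was started by adenovirus carrying Cre under the CMV promoter, which is active in many cell types, given through the trachea, and the labels give neither the age of the mice nor which tumors share a mouse. The comparison asks how these genes differ between tumors with and without Max, the obligate DNA-binding partner of the MYC proteins.

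The spliceosome removes introns from pre-mRNA and is built from small nuclear ribonucleoproteins (snRNPs), each a small RNA in a protein shell. The Sm proteins, encoded by most Snrp genes, form a ring on the U1, U2, U4 and U5 RNAs, and related LSm proteins form a ring on U6 RNA. The SF3a and SF3b complexes let U2 bind the branch point, and PRPF proteins join U1, hold the U4/U6.U5 tri-snRNP together or act in the catalytic steps. Genes for the splicing machinery are a well known group of MYC-responsive genes.

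The depth of the libraries was 8.66 to 15.1 M (megareads) in genes. Reads aligned to more than 1 place, which enter no gene's count, made up 9.17% to 11.8% of reads in the null tumors and 12.3% to 22.2% in the wild-type tumors. These ranges do not overlap, so this share and the genotype cannot be told apart. The share was highest in wild-type tumors 2, 4 and 7, at 16.01%, 20.8% and 22.2%, and the counts below, the sums and the members that passed the test are given with all 16 tumors and with the 13 left when these 3 are set aside. Max itself was not lower in the null tumors (log2 difference 0.18, edgeR adjusted p = 0.281), and a count over the whole gene cannot check a deletion of part of it. The summed level of 10 neuroendocrine markers ranged from 4221 to 8313 CPM (counts per M reads in genes) in null and from 4426 to 27104 CPM in wild-type tumors, with none of the 10 called. Of the markers of other cells, 1 of 6 alveolar type 2 genes was higher in null tumors and 2 of 6 tested leukocyte genes were lower. No club, ciliated, endothelial or fibroblast marker was called. Over all tested genes 8.64% were lower and 7.40% higher. The summed leukocyte level overlapped, at 275 to 905 CPM in null and 192 to 739 CPM in wild-type tumors. The summed alveolar type 2 level was 655 to 2814 CPM in null and 132 to 1973 CPM in wild-type tumors, and no marker was at 0 in all tumors. The part of any of these measures in the results below was not tested.

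MAX dimers bind the E-box CACGTG, so the 250 bases before an annotated start of 3 members are printed first, with this E-box in capitals. They were chosen after the values were seen: Prpf39 is the member whose call held with 13 tumors, Snrpa is the called member with more than 1 E-box, and Snrpe is a member with a large difference and no E-box. Sequences and starts are those of RefSeq on GRCm38.p6, which is not the build of the counts (mm9). The window of Prpf39 is chr12:65036084-65036333 on the plus strand, that of Snrpa is chr7:27196272-27196521 on the minus strand, and that of Snrpe is chr1:133610281-133610530 on the minus strand.
Prpf39: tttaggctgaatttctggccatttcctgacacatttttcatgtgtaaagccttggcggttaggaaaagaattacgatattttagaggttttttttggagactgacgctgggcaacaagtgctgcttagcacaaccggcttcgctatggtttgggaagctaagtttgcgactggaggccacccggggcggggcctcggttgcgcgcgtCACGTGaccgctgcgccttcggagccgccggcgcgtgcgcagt
Snrpa: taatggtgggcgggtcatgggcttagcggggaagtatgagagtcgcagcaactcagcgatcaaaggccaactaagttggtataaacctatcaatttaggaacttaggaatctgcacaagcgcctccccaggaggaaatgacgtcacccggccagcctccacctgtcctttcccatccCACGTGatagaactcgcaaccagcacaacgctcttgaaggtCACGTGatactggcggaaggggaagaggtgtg
Snrpe: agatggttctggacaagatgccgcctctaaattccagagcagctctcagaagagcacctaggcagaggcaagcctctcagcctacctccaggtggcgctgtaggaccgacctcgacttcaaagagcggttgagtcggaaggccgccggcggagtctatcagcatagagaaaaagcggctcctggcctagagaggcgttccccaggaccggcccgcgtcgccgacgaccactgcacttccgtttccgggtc
The E-box of Prpf39 begins 43 bases before the start, and those of Snrpa begin 73 and 32 bases before it. Snrpa has 2 RefSeq windows, and the one with more E-boxes was printed. The other has 1 E-box, which begins 69 bases before its start. In windows from 250 bases before to 50 bases after the start, CACGTG, which reads the same on both strands, was found in 4 of the 35 tested members with a RefSeq window, 11.4%, and in 11.4% of the 11706 tested genes with one. The 4 were Prpf3, Prpf39, Prpf40b and Snrpa, of which Prpf39 and Snrpa were called. A core motif of ETS factors, CCGGAAG on either strand, was found in 14 of the 35 members, 40.0%, against 18.1% of the 11706 genes. Of the tested genes with a window, it was found for 5 of 6 Sf3, 4 of 9 Snrp, 4 of 11 Prpf and 1 of 9 Lsm genes. A gene with several windows was counted if any of them held the motif. A match describes these letters and is not a shown binding site.

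Summed by prefix, the Snrp and Lsm genes had lower means in null tumors, and the ratios of the Prpf and Sf3 sums were nearer to 1. Levels are in CPM, scaled by TMM factors. The summed Snrp level was 813 ± 176 CPM in null (SD, n = 9) and 1438 ± 746 CPM in wild-type tumors (n = 7), a ratio of 0.566. Among the null tumors it ran from 614 CPM to 853 CPM, apart from null tumor 5 at 1235 CPM, and among the wild-type tumors from 876 to 1752 CPM, apart from wild-type tumor 7 at 2995 CPM. Only null tumor 5, the library with the fewest reads in genes, lies within the wild-type range. With wild-type tumors 2, 4 and 7 set aside, the wild-type mean was 1042 ± 187 CPM (n = 4) and the ratio 0.780. The summed Lsm level was 625 ± 88.9 CPM in null (530.1 to 826) and 855 ± 189 CPM in wild-type tumors (636 to 1213), a ratio of 0.730, and 0.847 against the 4 other wild-type tumors. The summed Prpf level was 1605 ± 138 CPM against 1563 ± 172 CPM, a ratio of 1.03, and 0.981 against the 4. The summed Sf3 level was 1239 ± 153 CPM against 1376 ± 272 CPM, a ratio of 0.901, and 0.859 against the 4. For each of the 4 prefixes the groups overlap, with 16 tumors and with 13.

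**Figure D1:**
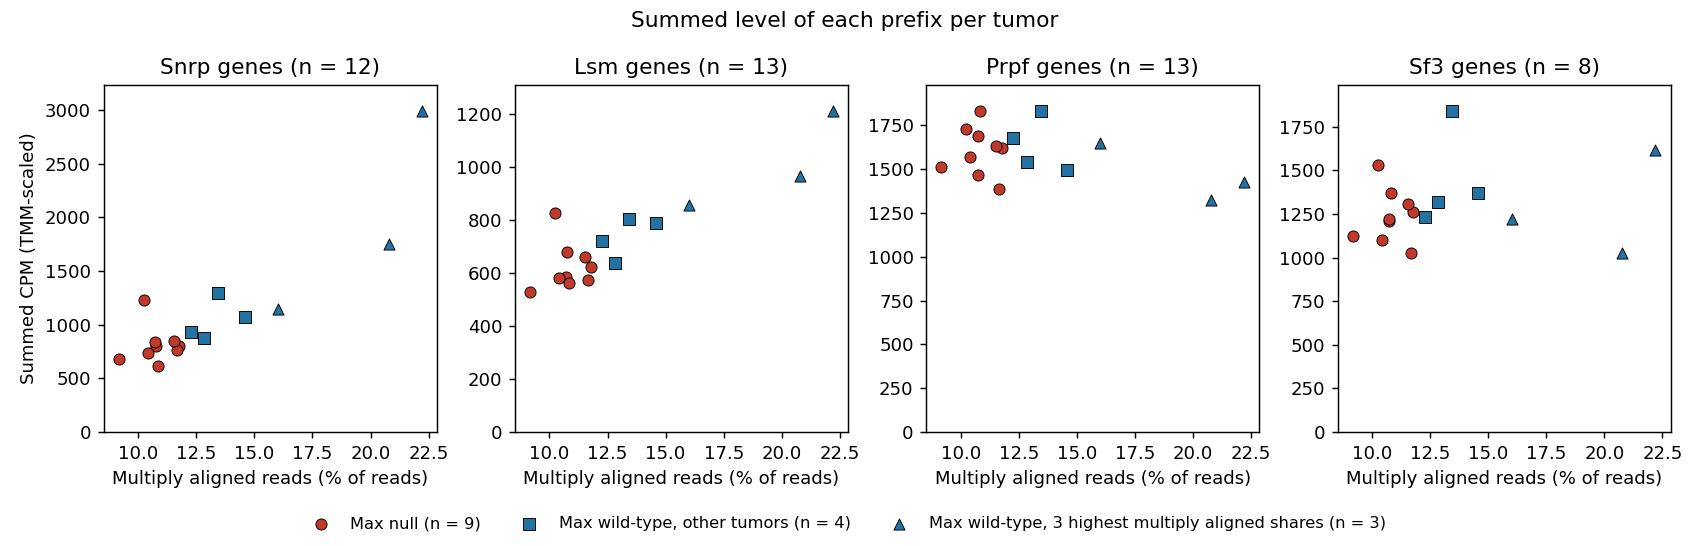
Summed CPM of the members of each prefix against the percentage of multiply aligned reads, with 1 point per tumor and wild-type tumors 2, 4 and 7 as triangles. Wild-type tumors 4 and 7 have the highest Snrp sums, at 1752 and 2995 CPM, and the lowest Prpf sums of the wild-type group, at 1321 and 1425 CPM.

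Across the members, 45 were tested and 16 fell in null tumors at an adjusted p of 0.05 (edgeR's quasi-likelihood test, Benjamini-Hochberg over 14825 genes). None rose, and 29 did not pass. Over all genes tested 8.64% were lower and 7.40% higher. At an unadjusted p of 0.05, 25 members were lower and 1, Prpf8, was higher, with 17.9% of all genes lower and 14.9% higher. DESeq2 called 19 lower and 1 higher, adding Lsm2, Sf3b5 and Snrpf, and Prpf8 on the higher side, with 12.1% of all genes lower and 10.4% higher. Without a filter on low counts 12 members fell (5.10% of all genes lower), and with a stricter filter 16 fell (8.74%). With DESeq2's size factors 16 fell (8.57% of all genes lower) and with upper-quartile factors 16 (10.2%). Leaving out wild-type tumor 4 left 10 members called, with 5.31% of all genes lower, and leaving out wild-type tumor 7 also left 10, with 5.56% lower. Without null tumor 5 there were 20, with 10.2% of all genes lower. The median log2 difference of the 45, null minus wild-type, was -0.44, against -0.03 over all genes tested. By prefix, 7 of 11 tested Snrp genes fell (median -0.89), 6 of 13 Lsm genes (median -0.57), 2 of 13 Prpf genes (median -0.06) and 1 of 8 Sf3 genes (median -0.02). With 13 tumors, 1 member fell (Prpf39) and none rose, with 0.871% of all tested genes lower and 0.805% higher, and at an unadjusted p of 0.05 there were 14 members lower and 0 higher, with 10.1% of all genes lower and 9.49% higher. The median log2 difference was then -0.31 over the 45, -0.41 for Snrp, -0.31 for Lsm, -0.26 for Prpf and -0.21 for Sf3, against 0.00 over all genes. All 16 called members were still below 0 in that fit. Its 13 tumors are among the 16 that picked these members, so this is not a separate test of them. A fit with the multiply aligned share as a term left 1 member called (Prpf39), with 0.0135% of all genes lower, and one with the tumor number as a block left 1 (Snrpd1), with 0.654% lower. Wild-type tumor 7 had the highest CPM of all tumors in 15 of the 16 called members, and Prpf39 was the exception. No member's groups were apart in all 16 tumors, where 0.648% of all tested genes had every null tumor below every wild-type tumor.

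**Figure D2:**
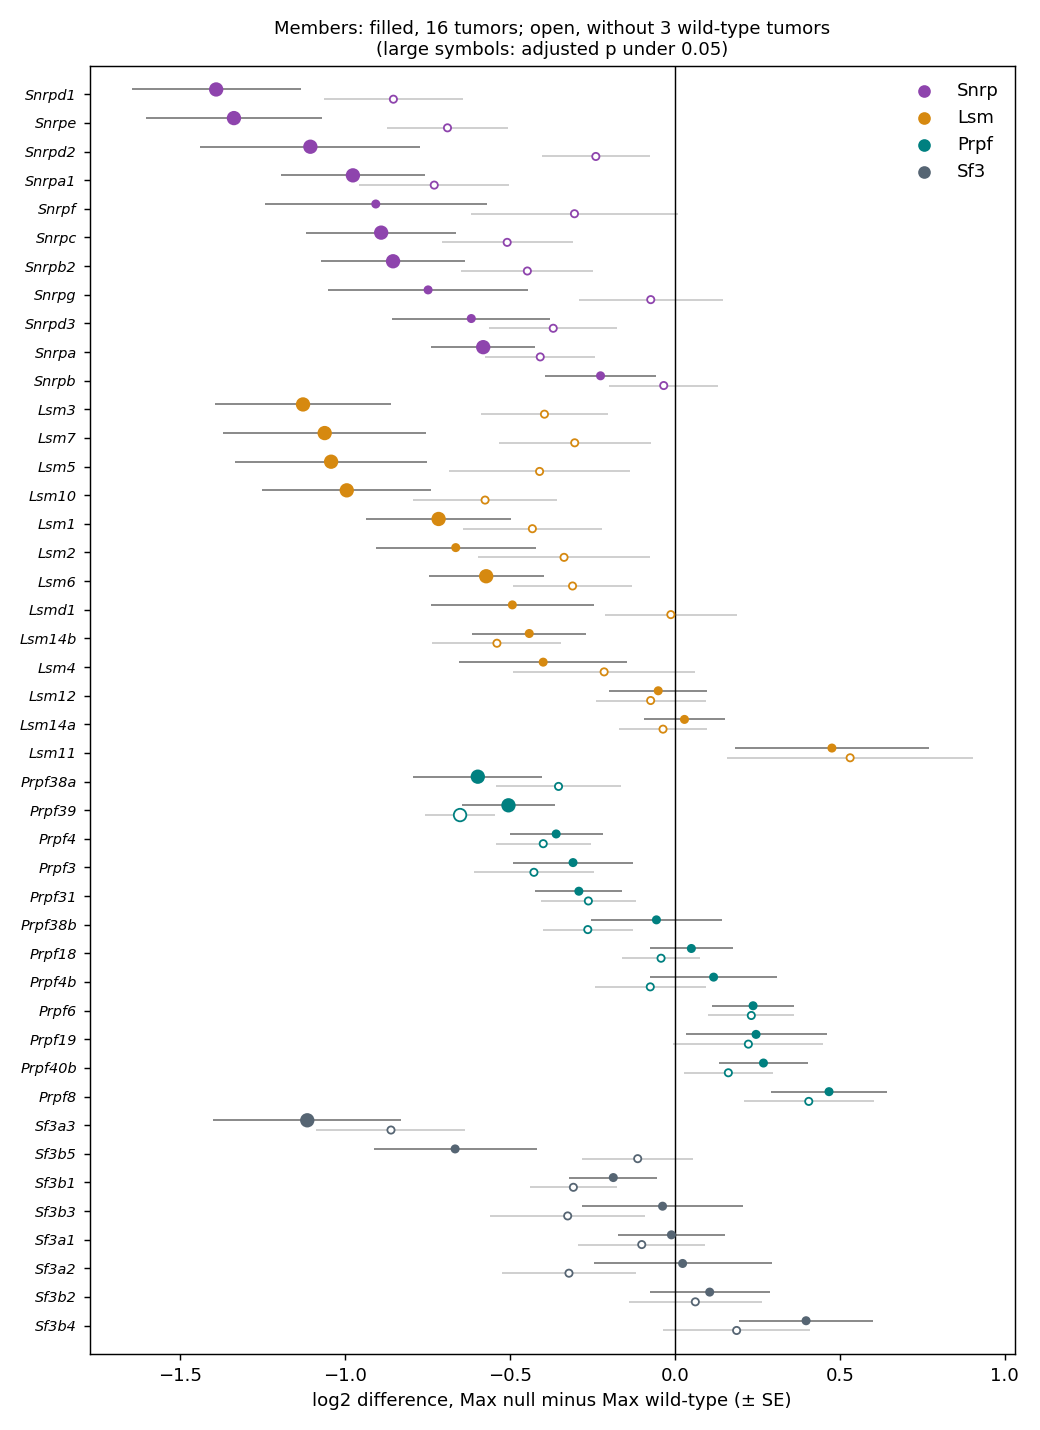
Log2 difference of 44 of the 45 tested members, null minus wild-type, each with its standard error, from all 16 tumors and from the 13 without wild-type tumors 2, 4 and 7 (open symbols), large where the adjusted p is under 0.05. Over all 45 members 38 were below 0 with 13 tumors, against 34 with 16, and most Snrp and Lsm differences are smaller.

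The Sm ring genes were led by Snrpd1, Snrpe and Snrpd2, the 3 of 7 tested that fell (median of the 7, -0.91). The share lower over all tested genes was 8.64%. Snrpd1, which encodes the Sm protein D1, was at 37.1 CPM in the lowest null tumor, 59.4 at the median and 103 in the highest, against 94.4, 120 and 301 CPM in wild-type tumors. Only the highest null value, in null tumor 5, overlaps the wild-type range. Its log2 difference was -1.39 ± 0.26 (SE, edgeR adjusted p = 0.00401), and -0.85 ± 0.21 with 13 tumors, which did not pass (adjusted p = 0.0552, range over the alternatives 2.44e-05 to 0.427). Snrpe, encoding Sm protein E, was at 49.7, 64.0 and 90.8 CPM in null (lowest, median, highest) and at 76.5, 138 and 347 CPM in wild-type tumors. Again null tumor 5 is the one value inside the wild-type range. The log2 difference of Snrpe was -1.34 ± 0.27 (adjusted p = 0.00591), and -0.69 ± 0.18 with 13 tumors. Snrpd2, encoding Sm protein D2, averaged 108 ± 22.3 CPM in null and 231 ± 211 CPM in wild-type tumors, where 1 tumor, wild-type 7, stood at 695 CPM. Its log2 difference of -1.10 ± 0.33 (adjusted p = 0.0339) became -0.53 without wild-type tumor 7 and did not pass, and its call was lost in 7 of the 16 fits that left out 1 tumor. With 13 tumors the difference of Snrpd2 was -0.24. Snrpf (-0.91), Snrpg (-0.75), Snrpd3 (-0.62) and Snrpb (-0.22) did not pass. Snrpn, the neuronal relative of Snrpb, had 2 reads in all and was not tested. In the GENCODE annotation it shares 27.3% of its exon bases with other genes, Snurf among them, and reads in more than 1 gene enter no count, so its level is not known.

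The 4 Snrp genes outside the Sm ring, which encode U1 or U2 snRNP proteins, all fell in null tumors (median -0.87). Of all tested genes 8.64% were lower. The SF3 genes, whose products also act with U2, are described below. Snrpa1, encoding the U2 protein A', was at 28.4, 38.7 and 71.4 CPM in null and 41.8, 83.2 and 138 CPM in wild-type tumors (lowest, median, highest). Null tumors 3, 5 and 9 lie above the lowest wild-type tumor. Its log2 difference was -0.98 ± 0.22 (edgeR adjusted p = 0.0102). Snrpb2, encoding the U2 protein B'', fell by 0.85 on the log2 scale (61.7 ± 17.7 against 112 ± 42.5 CPM), Snrpc, encoding the U1 protein C that acts in 5' splice site recognition, by 0.89 (36.0 ± 9.65 against 66.8 ± 29.6 CPM), and Snrpa, encoding the U1 protein A, by 0.58 (67.7 ± 13.7 against 101 ± 23.4 CPM). With 13 tumors these 4 differences were -0.73, -0.45, -0.51 and -0.41, and none passed. Snrpa, Snrpa1, Snrpb2, Snrpc, Snrpd1 and Snrpe passed when any 1 of the 16 tumors was left out.

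**Figure D3:**
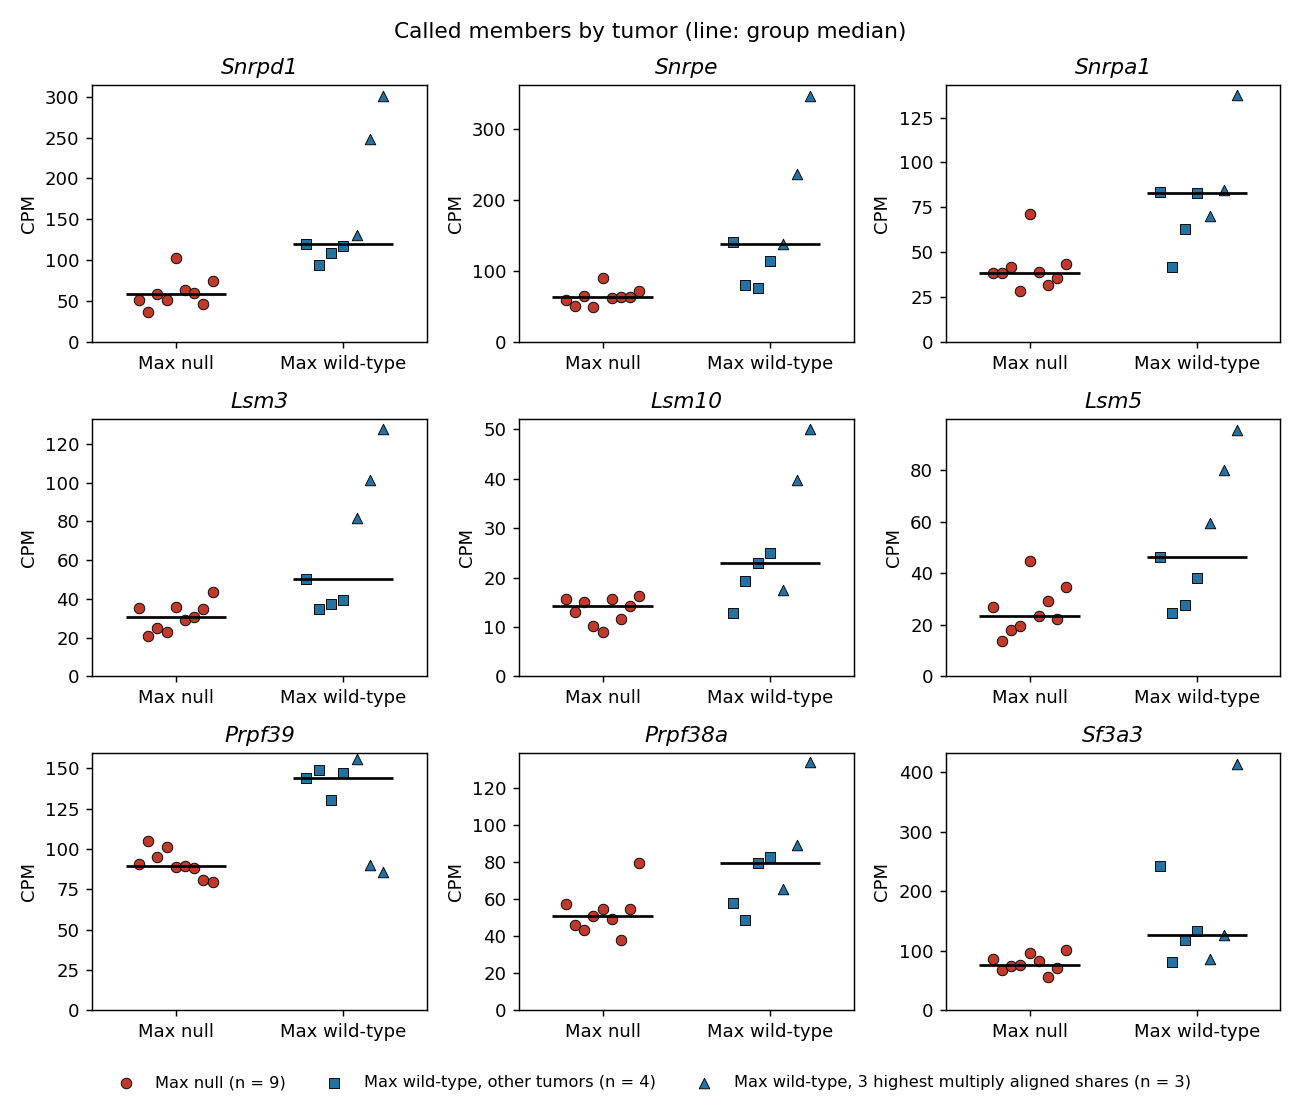
CPM in every tumor of 9 called members, null and wild-type, with a line at each group's median and wild-type tumors 2, 4 and 7 as triangles. In the Snrp and Lsm panels the highest point is wild-type tumor 7, and for Prpf39 wild-type tumors 4 and 7 lie with the null tumors, at 90.1 and 85.9 CPM.

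Of the 6 tested genes Lsm2 to Lsm7, Lsm3, Lsm5, Lsm6 and Lsm7 fell (median of the 6, -0.85), with 8.64% of all tested genes lower. Products of the 6 genes sit both in the LSm ring on U6 RNA and in the cytoplasmic ring that contains LSm1. Lsm8 is not among the members. Lsm3 was at 21.1, 30.9 and 43.5 CPM in null and 35.0, 50.5 and 128 CPM in wild-type tumors (lowest, median, highest), so the groups overlap. Its log2 difference was -1.13 ± 0.27 (edgeR adjusted p = 0.0127), and -0.39 ± 0.19 with 13 tumors. Lsm5 was at 13.8, 23.6 and 44.6 CPM in null and 24.7, 46.3 and 95.7 CPM in wild-type tumors. These ranges overlap as well, and the difference of -1.04 ± 0.29 (adjusted p = 0.0252) did not pass without wild-type tumor 4 (-0.91) or 7 (-0.84), and was -0.41 with 13 tumors. Lsm7 fell by 1.06 (36.8 ± 8.95 against 76.8 ± 54.4 CPM). Its call was lost without null tumor 2 or 7 or wild-type tumor 4 or 7, and without wild-type tumor 7 its difference was -0.67. Lsm6 fell by 0.57 (64.7 ± 17.1 against 96.1 ± 22.7 CPM). With 13 tumors Lsm7 was at -0.30 and Lsm6 at -0.31, and neither passed. Lsm2 (-0.66) and Lsm4 (-0.40) did not pass.

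Among the 7 other LSm genes, Lsm10 and Lsm1 fell (median of the 7, -0.44), with 8.64% of all tested genes lower. Lsm10, which with Lsm11 belongs to the U7 snRNP that processes histone mRNA ends and not to the spliceosome, was at 8.97, 14.3 and 16.2 CPM in null and 12.8, 22.8 and 50.03 CPM in wild-type tumors (lowest, median, highest). One wild-type tumor, number 1, lies inside the null range. The log2 difference of Lsm10 was -0.99 ± 0.26 (edgeR adjusted p = 0.018), and -0.57 ± 0.22 with 13 tumors. Its partner Lsm11 had a difference on the other side of 0, 0.48 ± 0.29 (30.4 ± 15.96 against 21.8 ± 7.42 CPM), which did not pass (adjusted p = 0.273). Lsm1, of the cytoplasmic LSm ring that acts in mRNA decay, fell by 0.72 (19.8 ± 4.94 against 32.5 ± 12.5 CPM), and was at -0.43 with 13 tumors, which did not pass. The calls of Lsm1 and Lsm6 were each lost in 10 of the 16 fits that left out 1 tumor. Lsm12 (-0.05), the P-body genes Lsm14a (0.03) and Lsm14b (-0.44), and Lsmd1 (-0.49), which despite its name encodes a subunit of an N-terminal acetyltransferase, did not pass.

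Of the PRPF genes, Prpf39 and Prpf38a fell. Prpf39, a U1-associated factor, had a tight null group, at 79.8, 89.4 and 105 CPM (lowest, median, highest), against 85.9, 144 and 156 CPM in wild-type tumors. Wild-type tumors 4 and 7 lie within the null range and the other 5 wild-type tumors lie above all null tumors, at 130 to 156 CPM. The log2 difference was -0.50 ± 0.14 (edgeR adjusted p = 0.0249). With 13 tumors it was -0.65 ± 0.10 (adjusted p = 0.0164), and the groups did not overlap, as for 1.17% of all tested genes in this direction. Without wild-type tumor 2 alone it was -0.45 and did not pass, and the adjusted p over all alternatives ran from 0.00506 to 0.171. Prpf38a, which encodes a protein needed for spliceosome activation, was at 37.8, 50.8 and 79.7 CPM in null and 49.0, 79.6 and 134 CPM in wild-type tumors. The groups overlap widely, the difference was -0.60 ± 0.20 (adjusted p = 0.046), and it did not pass in 12 of the 16 fits that left out 1 tumor or with 13 tumors (-0.35). Prpf8, encoding the scaffold at the spliceosome's active site, was on the other side, at 304, 409 and 525 CPM in null and 202, 296 and 457 CPM in wild-type tumors. Its difference of 0.47 ± 0.17 did not pass in edgeR (adjusted p = 0.0737), passed with DESeq2 and without wild-type tumor 1, and was 0.41 with 13 tumors and 0.10 with the length offset described below. The tri-snRNP genes Prpf4 (-0.36), Prpf3 (-0.31), Prpf31 (-0.29), Prpf4b (0.12) and Prpf6 (0.24) did not pass. Nor did Prpf38b (-0.06), the U1-associated Prpf40b (0.27), or the catalytic-stage genes Prpf18 (0.05) and Prpf19 (0.25).

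Of the 8 SF3 genes, Sf3a3 fell, with 8.64% of all tested genes lower. Sf3a3 encodes a subunit of the SF3a complex, and was at 57.0, 76.8 and 101 CPM in null and 82.2, 127 and 415 CPM in wild-type tumors (lowest, median, highest). Wild-type tumors 7 and 1 stood apart, at 415 and 242 CPM, and tumors 2 and 3 lie within the null range. The log2 difference was -1.11 ± 0.28 (edgeR adjusted p = 0.0176), -0.73 without wild-type tumor 7, where it still passed, and -0.86 ± 0.23 with 13 tumors, where it did not (adjusted p = 0.066, range over the alternatives 0.00287 to 0.6247). Its partners Sf3a1 (-0.01) and Sf3a2 (0.02) did not pass. Among the SF3b genes, Sf3b1, which encodes the branch-point protein often mutated in blood cancers, had a difference of -0.19 (348 ± 38.2 against 396 ± 69.2 CPM), Sf3b3 -0.04, Sf3b2 0.11, Sf3b4 0.40 and Sf3b5 -0.67, and none passed.

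Sf3a3 lies on chromosome 4 near Mycl, the MYC family gene often amplified in small cell lung cancer, listed as Mycl1 in the counts. In GENCODE 22 coding genes lie between them, and 3 lie between Mycl and Ppie, a peptidyl-prolyl isomerase gene of the catalytic spliceosome. Mycl1 was added after its values were seen. In wild-type tumors 1 to 7 Mycl1 was at 2832, 18.7, 146, 556, 226, 466 and 999 CPM. Sf3a3 in the same order was at 242, 86.7, 82.2, 127, 118, 133 and 415 CPM. Ppie was at 305, 59.1, 37.8, 72.6, 57.3, 85.1 and 914 CPM. Wild-type tumors 1 and 7 were the highest for all 3 genes, although Mycl1 was highest in tumor 1 and the other 2 in tumor 7. Tumor 7 was the highest of all tumors in 15 of the 16 called members, Sf3a3 among them, most of which lie on other chromosomes. In null tumors Mycl1 ran from 25.2 to 207 CPM, and Ppie from 26.2 to 46.5 CPM. Lsm10, Prpf38a and Prpf4 are also on chromosome 4, with 41, 181 and 411 coding genes between them and Mycl. Lsm10 was lowest of the wild-type tumors in tumor 1, where Mycl1 was highest. Copy number was not measured in these data, and the part of the locus in the differences was not tested.

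**Figure D4:**
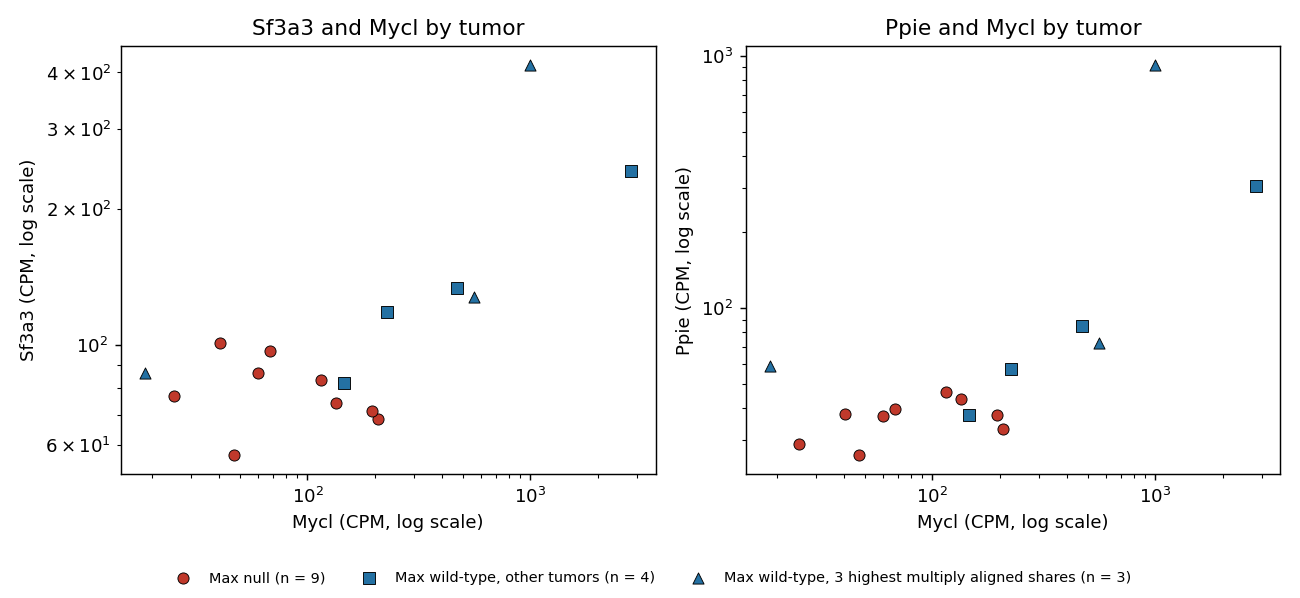
CPM of Sf3a3 (left) and Ppie (right) against the CPM of Mycl, listed as Mycl1, with 1 point per tumor and both axes on a log scale. Wild-type tumors 1 and 7 are highest for Mycl1, Ppie and Sf3a3, with Sf3a3 at 242 and 415 CPM.

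The Snrp and Lsm genes have shorter transcripts at the median than the other members. The median transcript length was 1161 bases for the Snrp genes, 943 for Lsm, 3308 for Prpf and 3531.5 for Sf3, and 2965 bases over all tested genes with a length, and it was 1306.5 bases for the 16 called members, which range from 468 to 4069 bases. Across the 45 members the log2 difference rose with log2 length (Pearson r = 0.69, Spearman rho = 0.68), a description across genes that share the same 16 libraries. The same r was 0.35 over 14678 genes. With 13 tumors it was 0.39 over the members and 0.13 over all genes. When each library's dependence of counts on length was fitted as an offset, 11 members fell, 8 of them among the 16, with 6.48% of all genes lower, and the median of the members was -0.31. The correlation with length over the members was then 0.07. Among the 11 were Lsm1, Lsm6, Prpf39, Prpf4, Sf3a3, Sf3b1, Snrpa1, Snrpb2, Snrpd1 and Snrpe. The prefix medians were then -0.59 for Snrp, -0.25 for Lsm, -0.23 for Prpf and -0.20 for Sf3. With the offset and 13 tumors, 1 member fell (Prpf39), with 1.05% of all genes lower, and the median was -0.28. Per kilobase of transcript, the highest levels in wild-type tumors were those of Snrpe, Snrpb and Snrpd1, at 322, 200.2 and 187 CPM per kilobase, and in null tumors those of Snrpb, Snrpe and Sf3b2, at 171, 128 and 98.4 CPM per kilobase.

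**Figure D5:**
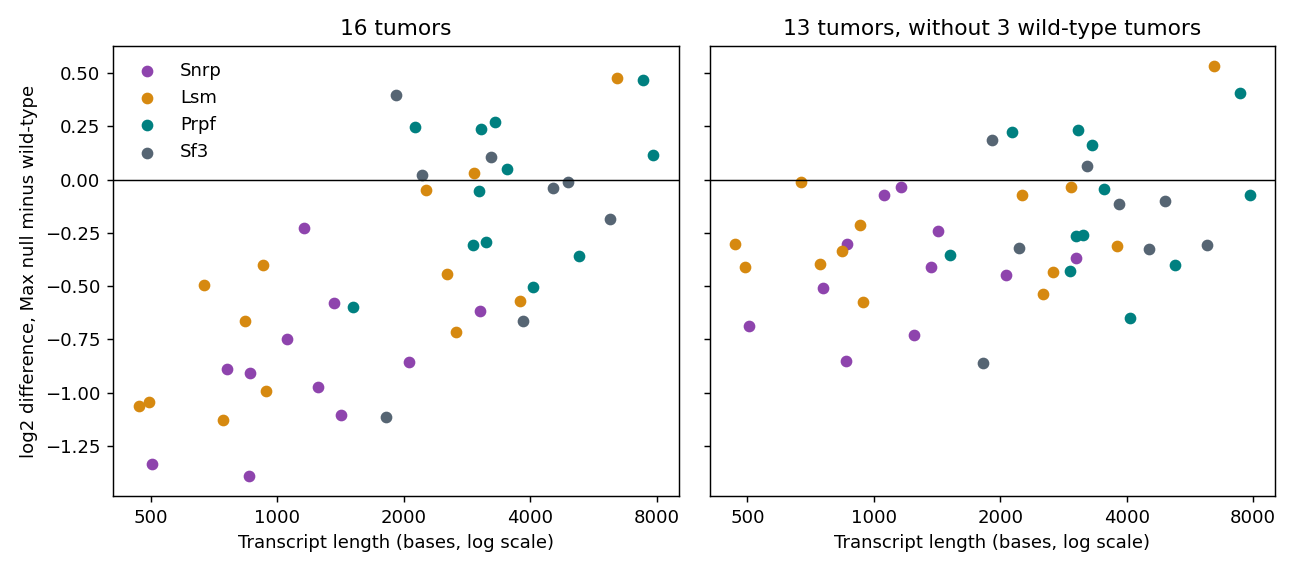
Log2 difference of 44 of the 45 tested members, null minus wild-type, against transcript length in bases on a log axis, from all 16 tumors (left) and from 13 (right), coloured by prefix. The short Snrp and Lsm genes lie lowest on the left, and over all 45 members the correlation was 0.69 with 16 tumors and 0.39 with 13.

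Sequence shared with other genes bears on several members. A read that aligns to more than 1 place, or lies in more than 1 gene, enters no count. In 8 members at least 20% of the 50-base stretches of the transcript also occur in transcripts of other genes. Of these, 5 were called: Lsm7 (62.8%), Lsm5 (44%), Snrpa (31.1%), Snrpe (28.4%) and Snrpc (26.7%). Snrpf (89.5%) and Sf3b4 (51.2%, log2 difference 0.40) did not pass, and Snrpn (24.3%) was not tested. Of all 45 tested members 16 were called, and 8.64% of all tested genes were lower. The levels of the 8 members are therefore uncertain. Snrpf and Lsmd1 also share 85.4% and 34.4% of their exon bases with neighbouring genes, and Snrpa shares 11%. Lsm7, Lsm5, Snrpe and Snrpc share none. The 50-base shares can include stretches of genes that overlap a member at the same place, as for Snrpf. They leave out copies that lie in no annotated transcript, so they do not measure multiple alignment alone. The part of shared sequence in the group differences was not tested.

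The other spliceosome genes, taken from 5 lists chosen by function, also fell more often than they rose. Of 107 tested, 31 fell, 2 rose and 74 did not pass (median log2 difference -0.29), with 8.64% of all tested genes lower and 7.40% higher. With 13 tumors 4 were called, all lower, with 0.871% of all tested genes lower and 0.805% higher. Of 28 other U snRNP and tri-snRNP genes 11 fell. The 3 with the smallest p were Phf5a, a small SF3b subunit (-1.14 ± 0.21), Zcrb1, of the minor spliceosome (-0.88 ± 0.19), and Dnajc8 (-1.01 ± 0.22). Of 27 genes of 3' splice site recognition and SR proteins 6 fell, among them U2af1, which reads the 3' splice site AG (-1.04 ± 0.21). Tra2b, an SR-like splicing regulator, was at 181, 199 and 286 CPM in null and 296, 370 and 390 CPM in wild-type tumors (lowest, median, highest). Every null tumor lay below every wild-type tumor, and the log2 difference was -0.75 ± 0.12 (edgeR adjusted p = 0.0028), and -0.72 with 13 tumors, where it passed. Srsf7, an SR protein, fell by 0.63 and, with 13 tumors, by 0.69, where it also passed. Srsf6, another SR protein named after its values were seen, passed with 13 tumors (-0.56) but not with 16 (-0.39).

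For the lists that follow, 8.64% of all tested genes were lower and 7.40% higher. Of 29 genes of the PRP19 complex, the helicases and step factors 7 fell. Ppie had the lowest difference, -2.57 ± 0.55 (edgeR adjusted p = 0.0085), which was -1.49 without wild-type tumor 7 and -1.73 with 13 tumors, where it passed. Syf2 and Cwc15, of the same complex family, fell by 0.76 and 0.58. Of 8 exon junction complex genes Magoh and Magohb, paralogs that encode a core subunit, fell by 1.06 and 0.91. Of 15 snRNP assembly genes 5 fell, among them Smn1, the spinal muscular atrophy gene whose product loads Sm rings (-0.65 ± 0.16), Strap (-0.66 ± 0.16) and Phax, the snRNA export adaptor (-0.61 ± 0.16). The 2 genes that rose are in this list. Wdr77, a cofactor of the PRMT5 enzyme that methylates Sm proteins, was at 99.8 ± 18.7 CPM in null and 64.4 ± 10.7 CPM in wild-type tumors (0.63 ± 0.14), and Gemin5, which recognises snRNAs, at 51.5 ± 5.63 and 32.0 ± 10.3 CPM (0.68 ± 0.18). For both genes the groups overlap. With 13 tumors 0.871% of all tested genes were lower and 0.805% higher. No gene of the snRNP assembly list passed in that fit, and the differences were 0.55 for Wdr77, 0.45 for Gemin5, -0.54 for Smn1, -0.59 for Strap and -0.43 for Phax. Nor did Phf5a (-0.70), Dnajc8 (-0.78), Zcrb1 (-0.42), U2af1 (-0.71), Syf2 (-0.30), Cwc15 (-0.23), Magoh (-0.53) or Magohb (-0.39).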

How the data were processed

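RNA sequencing counts of 16 tumors were used, 9 null and 7 wild-type, grouped by the labels. The deposited files hold raw counts per gene symbol, made by the authors. The submitters' processing notes name HTSeq 0.6.1, TopHat, TopHat2 2.0.12, bcl2fastq 1.8.4 and mm9, with no role given. The sources used here give neither the annotation nor the strand setting. Totals for reads in no gene or in more than 1 place stayed out of library sizes and made up 29.2% to 45.6% of reads.

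edgeR 4.0.16 in R 4.3.3 (quasi-likelihood F test, TMM factors, filterByExpr by group) was fitted to all 14825 genes kept, with Benjamini-Hochberg adjustment and a threshold of 0.05. The standard error is the log2 difference divided by the square root of F. The fit was tested on simulated data for this comparison (14787 genes, dispersion 0.1): 100 of 100 genes with a log2 change of 2 in size were called, 84 of 100 with a change of 1, and 18 of 14587 with none. CPM are TMM-scaled. No label says whether tumors share a mouse, and p-values therefore reflect only how these samples vary. In bulk tumors fewer cells of a type and less RNA per cell cannot be told apart. Transcript lengths come from the GENCODE M21 principal transcript and matched all 46 members and 99.0% of tested genes. The length offset was a lowess fit of log counts on length per library. DESeq2 1.42.0 was an alternative.

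The members, the lists and the tests were chosen with earlier results of these data known. Values in every tumor, as lowest, median and highest, are given for the called members with the smallest p, at most 3 per prefix and direction, and for members called with 13 tumors. Up to 3 called genes per list and direction are named, and others are marked as named after their values were seen. Single results for some members are not reported here.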

Additional observations from a re-analysis of the deposited data

Results flagged for a closer look

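In 98 groups of values, the tested members and the 4 sums in each genotype, the highest and lowest tumor were compared with the nearest other tumor. One tumor stood apart in 8 groups on the log2 CPM scale and in 20 on the CPM scale, 6 of them on both. For independent groups chance gives about 1 in 20 on 1 scale. These groups share the same 16 libraries and the sums contain the members, so that rate is only a rough guide here.

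Null tumor 5, the tumor with the fewest reads in genes, was the highest null tumor in 8 groups. On both scales these were the summed Snrp level at 1235 CPM (next 853), Lsm6 at 106 CPM (next 71.4), Snrpa at 101 CPM (next 74.1), Snrpa1 at 71.4 CPM (next 43.7) and Snrpc at 59.5 CPM (next 38.2). On the CPM scale alone they were Snrpd3 at 99.1 CPM (next 72.6), Snrpf at 85.7 CPM (next 46.5) and the summed Lsm level at 826 CPM (next 679).

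Wild-type tumor 7 was the highest wild-type tumor in 7 groups, on the CPM scale alone. Snrpd2 was at 695 CPM (next 258), Snrpf at 175 CPM (next 75.6), Snrpd3 at 208 CPM (next 115), Snrpb at 365 CPM (next 256), Lsm7 at 189 CPM (next 95.0), Lsmd1 at 56.9 CPM (next 31.7) and the summed Snrp level at 2995 CPM (next 1752). It was the lowest in 3, with Prpf38b at 52.3 CPM (next 131) on both scales, and Prpf4b at 70.3 CPM (next 144) and Prpf40b at 36.8 CPM (next 52.0) on the log2 scale alone. This tumor had the highest share of multiply aligned reads, 22.2%, and the part of that share in these values was not tested.

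The other 4 stood apart on the CPM scale alone. Null tumor 4 was highest for Prpf3 at 84.6 CPM (next 62.5) and Sf3b4 at 119 CPM (next 85.5), null tumor 9 for Prpf38a at 79.7 CPM (next 57.3), and wild-type tumor 1 for Sf3a1 at 168 CPM (next 113).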

How the results depend on the processing

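The count of members called was 16 with DESeq2 size factors, with upper-quartile factors and with the stricter filter, 20 with DESeq2, 12 with no filter and 11 with the length offset. It was 1 with 13 tumors, 1 with the length offset and 13 tumors (chosen after seeing the data), 1 when the multiply aligned share was a covariate, and 10 to 20 when 1 tumor was left out (10 without wild-type tumor 4 or 7). The count over the pathway lists, 33, was 18 with the length offset, 4 with 13 tumors, 4 with both, 0 with the covariate and 24 to 37 when 1 tumor was left out. Calls fell over all genes too. The share of all tested genes called lower, 8.64%, was 6.48% with the length offset, 0.871% with 13 tumors, 1.05% with both and 0.0135% with the covariate. It was 5.31% without wild-type tumor 4 and 10.2% without null tumor 5. The log2 ratio of the summed Snrp level, -0.82, was -0.36 with 13 tumors and -0.92 to -0.54 when 1 tumor was left out. No label says that a tumor number marks a shared animal or batch. Correlations of same-numbered tumors ran from -0.17 to 0.25, 2 of 7 pairs were over 0.1, and 0 wild-type tumors correlated best with their own number. The replicate block on that number called 1 member (Snrpd1) and 0 pathway genes, with 0.654% of all tested genes lower.

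Some log2 differences changed sign. With the covariate these were Lsm12 (0.038), Lsm14a (-0.10), Lsm4 (0.083), Lsm7 (0.16), Lsmd1 (0.36), Prpf18 (-0.21), Prpf4b (-0.36), Sf3a2 (-0.81), Sf3b5 (0.31), Snrpb (0.16), Snrpd2 (0.33), Snrpd3 (0.016), Snrpf (0.069), Snrpg (0.51) and Magohb (0.055). With the length offset they were Lsm12 (0.042), Lsm4 (0.023), Lsmd1 (0.12), Prpf18 (-0.022), Prpf4b (-0.23) and Snrpb (0.11). With 13 tumors they were Lsm14a (-0.036), Prpf18 (-0.042), Prpf4b (-0.074) and Sf3a2 (-0.32). With the offset and 13 tumors they were Lsm14a (-0.028), Lsmd1 (0.10), Prpf18 (-0.065), Prpf4b (-0.28), Sf3a2 (-0.29) and Snrpb (0.031). Lsm14a reached -0.00403 with upper-quartile factors, Sf3a1 0.030 with no filter and Sf3b3 0.016 with the block. Leaving out 1 tumor moved Lsm12 between -0.11 and 0.0053, Lsm14a between -0.025 and 0.083, Prpf18 between -0.010 and 0.10, Prpf38b between -0.21 and 0.010, Prpf4b between -0.019 and 0.21, Sf3a1 between -0.088 and 0.15, Sf3a2 between -0.13 and 0.28 and Sf3b3 between -0.17 and 0.15. Of the called genes, Lsm7, Snrpd2 and Magohb changed sign, each with the covariate and with no other setting. The cause of these changes was not tested. Every library had at least 8.66 M reads in genes, and Snrpn, with 2 reads over all tumors, was too low to test.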
